A study of Mus musculus with 12 samples.

Results

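The mouse Ms4a gene cluster is a row of related genes on chromosome 19, and its binding by FoxP3 was read from 6 ChIP-seq peak lists. The members are all peaks whose summit lies in mm9 chr19:11000001-12000000, a window of 1 Mb named as holding the cluster, with the genes Ms4a4b, Ms4a4c, Ms4a6b and Ms4a6c named in it. The window held 295 of the 53228 peaks in all lists, and these joined into 99 of the series' 24765 regions (peaks of different libraries that overlap by at least 1 bp). The window was chosen by the number of its peaks in these lists, so that number is a description and carries no test. Gene positions in mm9 were not used here, so the label could not be checked against the peaks and no region is assigned to a gene.

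Regulatory T (Treg) cells depend on FoxP3, a transcription factor of the forkhead family. The study asked where FoxP3 carrying the substitution A384T binds relative to the wild-type protein (WT). Chromatin came from freshly isolated, untreated CD4+ hCD2+ Treg cells of lymph nodes and spleen. They were taken either from FoxP3WT:hCD2 mice or from FoxP3A384T:hCD2 mice, both C57BL/6J, so both genotypes carried the human CD2 reporter used to sort the cells. Each genotype had 3 ChIP libraries and 3 input libraries, and age is not among the labels used here. The labels do not say whether replicates came from separate animals, so the spread between libraries may be technical.

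The Ms4a genes encode small membrane-spanning proteins and include the B cell surface protein CD20 and a chain of the mast cell IgE receptor. Several closely related members stand side by side in the mouse genome. Ms4a4b is expressed in T cells, where its product associates with the costimulatory receptor GITR. FoxP3 binds DNA through its forkhead domain, and it binds many sites that are already open in T cells together with partner factors, including members of the ETS, RUNX and AP-1 families.

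RefSeq lists 21 Ms4a genes in GRCm38.p6, all on chromosome 19, and in that assembly Ms4a4c, Ms4a4b, Ms4a6c and Ms4a6b are neighbours in this order within the family. All 4 were matched by symbol to upstream sequences. The 250 bases before the annotated start of each gene are printed because they show how alike the copies are and which short factor motifs they hold. Capitals mark the forkhead core TGTTTA and the ETS core GGAAGT on either strand. All 4 lie on the plus strand of GRCm38.p6, whose positions cannot be set against the mm9 positions of the peaks.

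Ms4a4c, GRCm38.p6 chr19:11407411-11407660: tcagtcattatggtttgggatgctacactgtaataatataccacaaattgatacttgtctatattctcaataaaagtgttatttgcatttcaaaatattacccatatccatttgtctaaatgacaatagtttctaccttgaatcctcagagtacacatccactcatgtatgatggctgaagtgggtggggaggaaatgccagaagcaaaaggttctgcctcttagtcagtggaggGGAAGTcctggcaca

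Ms4a4b, GRCm38.p6 chr19:11443308-11443557: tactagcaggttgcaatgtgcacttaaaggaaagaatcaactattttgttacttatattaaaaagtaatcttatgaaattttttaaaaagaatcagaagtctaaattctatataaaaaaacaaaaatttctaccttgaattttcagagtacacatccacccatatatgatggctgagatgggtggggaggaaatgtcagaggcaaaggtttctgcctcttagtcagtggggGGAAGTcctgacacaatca

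Ms4a6c, GRCm38.p6 chr19:11469118-11469367: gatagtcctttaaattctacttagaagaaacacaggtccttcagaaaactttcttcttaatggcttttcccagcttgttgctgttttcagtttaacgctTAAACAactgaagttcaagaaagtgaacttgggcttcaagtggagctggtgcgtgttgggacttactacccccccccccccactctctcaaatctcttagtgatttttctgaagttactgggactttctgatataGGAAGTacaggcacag

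Ms4a6b, GRCm38.p6 chr19:11518309-11518558: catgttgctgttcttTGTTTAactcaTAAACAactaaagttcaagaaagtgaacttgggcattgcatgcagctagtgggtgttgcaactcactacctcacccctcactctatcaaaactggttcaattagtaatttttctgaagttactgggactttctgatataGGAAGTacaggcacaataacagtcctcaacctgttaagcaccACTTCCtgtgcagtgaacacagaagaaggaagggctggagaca

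The copies pair off by sequence in local alignments. Upstream of Ms4a4b and Ms4a4c, 73.1% of 249 aligned columns were identical in the best local alignment. Upstream of Ms4a6b and Ms4a6c the figure was 83.1% of 183 columns, with the matching stretch running from 250 to 71 bases before the start of Ms4a6b and from 177 to 2 bases before that of Ms4a6c. The 4 comparisons across these pairs gave at most 54.5%. With all 250 bases aligned end to end, identity was 70.9% for Ms4a4b and Ms4a4c. For Ms4a6b and Ms4a6c it was 47.2%, against 47.6 to 52.4% across the pairs. The likeness of these 2 was thus seen only over the matching stretch. The ETS core GGAAGT was found upstream of all 4 genes, against 19.7% of 32851 upstream stretches of the same length in RefSeq. The forkhead core TGTTTA was found upstream of Ms4a6b (2 matches) and Ms4a6c (1 match) and not upstream of Ms4a4b or Ms4a4c, against 12% of all stretches. The longer forkhead consensus TGTTTAC, which contains TGTTTA, was found in none of the 4 and in 3.17% of all stretches. The AP-1 motif TGANTCA (6.75% of all stretches) and the RUNX motif TGTGGTT (4.4%) were also in none of the 4. A match says only that these letters are present.

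Peak lists differed widely in length, and each held a set of peaks in the Ms4a window. Values of the 3 libraries of a genotype are given here and below in the order of their replicate numbers. The WT lists had 20723, 1746 and 3905 peaks on the standard chromosomes and the A384T lists 18147, 6657 and 2050. Unique ChIP tags numbered 17520951, 25386770 and 21752899 in the WT libraries and 18255500, 22402648 and 24493840 in the A384T libraries. The longest lists thus did not come from the deepest libraries. In the window there were 95, 36 and 43 peaks in the WT libraries and 53, 49 and 19 in the A384T libraries. Among all 1 Mb windows with a peak the Ms4a window ranked 5th, 2nd and 3rd by number of peaks in the WT libraries. In the A384T libraries it ranked 7th, 3rd and 2nd. The median window with a peak held 2 to 8 peaks in these lists. The window held 12, 45.6 and 27.9% of all chromosome 19 peaks in the WT libraries and 7.77, 22.3 and 29.2% in the A384T libraries. Its peaks had median folds of 17.5, 11.1 and 11.6 in WT, against 11.5, 11 and 11 over the whole list, and of 16.3, 13.8 and 9.06 in A384T, against 11.8, 11.6 and 10.3. They were thus above their list in both replicate 1 libraries and A384T replicate 2, close to it in the other WT libraries and below it in A384T replicate 3. The neighbouring 1 Mb to the left held 1 to 31 peaks and that to the right 0 to 22.

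Peaks did not spread over the window but gathered in a single block in every library. Neighbouring regions were counted to the same block where the gap between them did not exceed 50 kb. The largest block ran from 11426442 to 11676844, over 250.4 kb, and held 89 of the 99 regions (89.9%), with no gap in it above 20.6 kb. It was set off by 230.5 kb without a peak on the left and 168 kb on the right. Inside it the median gap between neighbouring regions was 1.15 kb, against 12.4 kb between neighbouring regions over the whole series, and regions covered 16.5% of its length. The window was chosen by its number of peaks and the block by its gaps. A short median gap follows from that choice and is a description only. Every one of the 18 regions found in all 6 libraries lay in this block. The densest 200 kb, from 11426583, held 84.2, 94.4 and 95.3% of the window's peaks in the WT libraries, and 77.4, 91.8 and 100% in the A384T libraries.

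**Figure D1:**
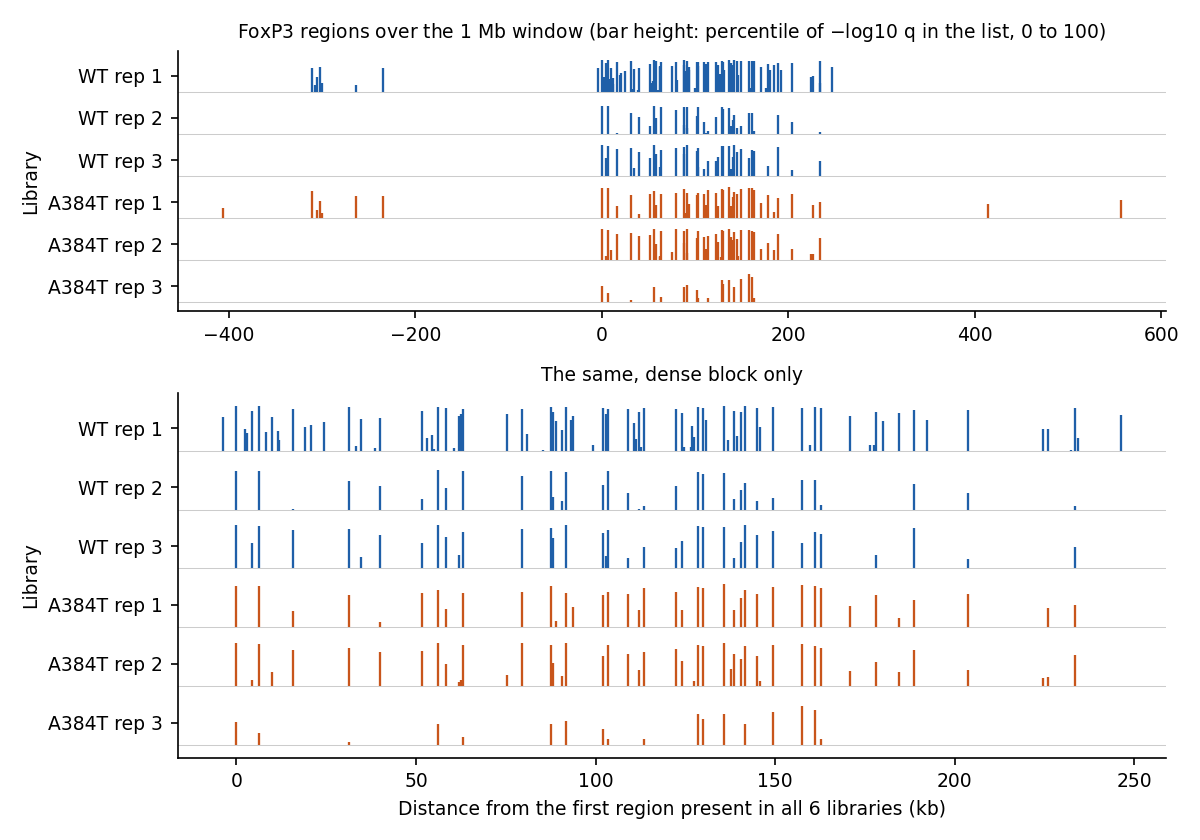
Regions with a FoxP3 peak in each library along the 1 Mb window (top) and in its dense block (bottom), with distance from the first region present in all 6 libraries in kb on the horizontal axis. Bar height is the percentile of the region's best -log10 q within that library's own list, on a scale from 0 to 100, with WT in blue and A384T in orange. All 6 libraries have their bars in the same block, and only the replicate 1 libraries have any outside it.

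Outside the block there were 10 regions, all from replicate 1 libraries. A group of 7 lay between 11119501 and 11195955, and 6 of these had a peak in both replicate 1 libraries and the other in WT replicate 1 alone. The other 3 outlying regions, starting at 11023700, 11844731 and 11986743, were found in A384T replicate 1 alone, with folds (the authors' ChIP over local control) of 7.88, 12.3 and 12.7. Just beyond the edges of the window, the nearest regions started at 10969605 and 12039967 and reached folds of 8.93 and 8.60. In bins of 100 kb, the bin from 11500001 to 11600000 was the fullest in each library, with 44, 24 and 26 peaks in the WT libraries and 26, 28 and 14 in the A384T libraries. This bin also held 13 of the 18 regions found in all libraries, and the other 5 lay in the bin before it.

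**Figure D2:**
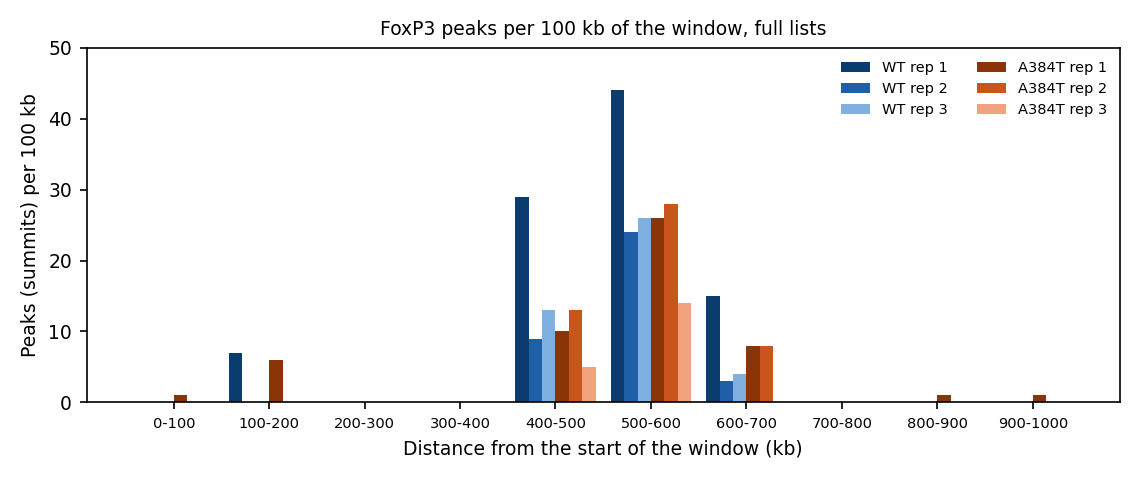
Number of FoxP3 peaks per 100 kb of the window in the full lists, by distance from the start of the window in kb, with 1 bar per library. The bin holding 11500001 to 11600000 is the fullest in every library, with 14 to 44 peaks, and libraries other than the replicate 1 pair have bars only in that bin and its neighbours.

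Of the 99 regions, 55 (55.6%) had a peak in both genotypes, a share no different from the 56% of all regions of the series. A peak in all 6 libraries was found in 18 (18.2%), against 3.88% of all regions (16.7 against 13.4% in the lists of equal length below). Another 40 (40.4%) had peaks in WT libraries alone, against 26.8% of all regions, and 38 of them came from WT replicate 1, the longest list, by itself. Regions with A384T peaks alone numbered 4 (4.04%), against 17.2% of all regions, and each came from a single library. A single library held 42 of the 99 regions (42.4%, against 42.4% of all regions). A genotype with peaks in its 3 libraries and the other with 0 was found nowhere in the window, against 0.0121% of all regions for WT and 0.186% for A384T. At least 2 WT libraries and no A384T library had a peak in 2 regions (0.872% of all regions are of this kind, and 0.763% of the reverse kind, of which the window had 0). They ran from 11464891 to 11465302 and from 11533005 to 11533461. The first of these had folds of 19.6 and 10.6 in WT replicates 1 and 3, and the other 20.4 and 10.2 in the same libraries.

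The regions held by every A384T library were a subset of those held by every WT library. All 18 of the former were among the latter, whereas over the series 962 of 1889 (50.9%) were. In the other direction, 33 regions (33.3%, against 6.21% of all regions) had a peak in all 3 WT libraries. Of these 33, 18 (54.5%) had one in all 3 A384T libraries, against 62.5% over the series. A further 13 of the 33 lacked a peak only in A384T replicate 3, as did 532 of the 1539 regions of this class over the series. Such a lack was thus common outside the window too. The remaining 2, starting at 11518504 and 11520952, had an A384T peak in replicate 2 alone. A384T replicate 3 and WT replicate 2 have lists of similar length, with 2050 and 1746 peaks over the standard chromosomes, and they held 18 and 34 of the 99 regions. The 13 regions absent from A384T replicate 3 alone had WT means of the fold from 11.8 to 22.8. The strongest of them ran from 11509396 to 11510313, with folds of 38, 13 and 17.5 in the WT libraries and 24.6 and 30.9 in A384T replicates 1 and 2.

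List length alone changes such counts, so the lists were also cut to 1746 peaks each, taken from the top by -log10 q, which is as long as the shortest list. The window then held 25, 36 and 29 peaks in the WT libraries and 6, 23 and 14 in the A384T libraries. The mean share of the list was 1.72 ± 0.319% for WT and 0.821 ± 0.487% for A384T (SD, n = 3 each), and the genotypes did not overlap, although A384T replicate 2 at 1.32% came close to WT replicate 1 at 1.43%. Exact 95% intervals, which cover counting error only, ran from 0.929 to 2.11% for WT replicate 1 and from 0.837 to 1.97% for A384T replicate 2, so these neighbours cannot be told apart. Among 443 windows of 1 Mb with a peak in all 6 libraries, 5.19% likewise had all WT shares above all A384T shares, and 4.29% had the reverse. WT was higher within each replicate number, with differences, A384T minus WT, of -1.09, -0.745 and -0.859 percentage points for numbers 1, 2 and 3. No p-value is given, because the window was chosen with these lists in view. A384T replicate 1 had the fewest strong peaks here, and without it the A384T mean was 1.06%, with the genotypes still apart.

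In the full lists the genotypes overlapped. The window took 0.458, 2.06 and 1.1% of the list in the WT libraries and 0.292, 0.736 and 0.927% in the A384T libraries. The difference of the means, A384T minus WT, was -0.555 percentage points, and it ranged from -0.128, when WT replicate 2 was left out, to -0.930, when WT replicate 1 was left out, with -0.376 when A384T replicate 1 was left out. Among 608 windows with a peak in all 6 full lists, 4.11% had all WT shares above all A384T shares and 5.92% the reverse, and the Ms4a window was in neither set. Lists of 500 and 1500 strongest peaks kept the genotypes apart. At 1000 they touched, with 16, 22 and 22 peaks in the WT libraries and 1, 16 and 7 in the A384T libraries.

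**Figure D3:**
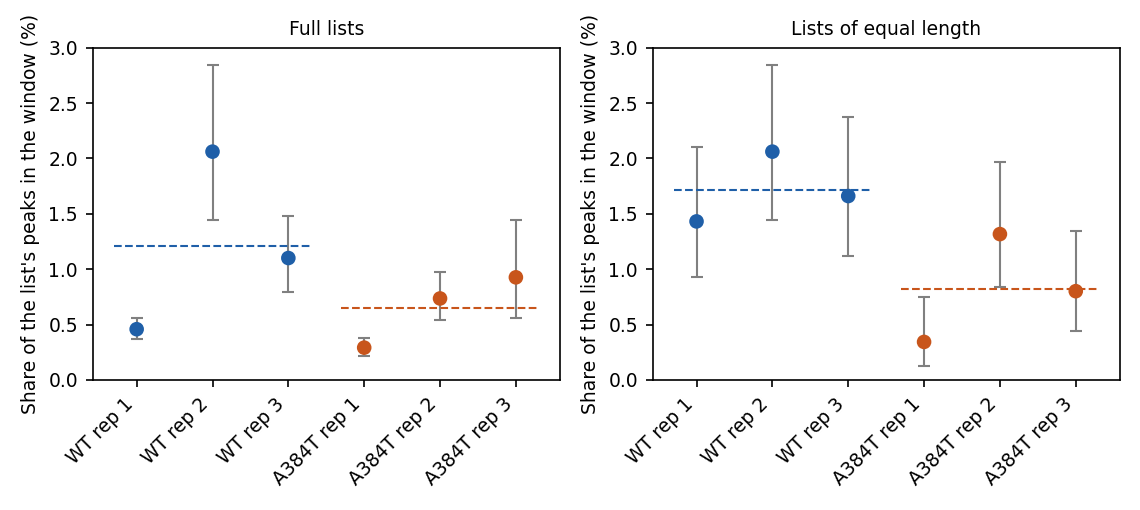
Share of each library's peaks that lie in the Ms4a window, in percent, for full lists (left) and for lists cut to the length of the shortest (right). Points are libraries, bars are exact 95% intervals for counting error, and dashed lines are genotype means. The genotypes overlap in the full lists and do not in lists of equal length, where the lowest WT point is 1.43% and the highest A384T point 1.32%.

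The lists of equal length left 36 regions in the window, and 24 were held by both genotypes (66.7%, against 45% of all 3744 regions in such lists). A peak in all 6 libraries was found in 6 (16.7%, against 13.4%). Only WT libraries had a peak in 12 (33.3%, against 25.4%), and only A384T libraries had one in 0 (against 29.6%). In every WT library and no A384T library there were 2 regions, a class that held 3.21% of all regions, and the reverse class held 0 here and 3.55% of all regions. The 2 regions ran from 11488300 to 11489032 and from 11575070 to 11575668. Both also had peaks in A384T replicates 1 and 2 in the full lists, with folds of 12.1 and 11.1 for the first and 19.2 and 11.7 for the other. In those libraries the peaks fell below the 1746 strongest, whereas A384T replicate 3 had no listed peak in either region.

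The 18 regions found in all 6 libraries measured 342 to 1476 bp with a median of 797 bp, against a median of 586 bp for the 962 such regions of the series. Their median percentile within the full list was 98.0, 80.5 and 88.5 in the WT libraries and 88.3, 92.0 and 47.7 in the A384T libraries, so in A384T replicate 3 they were not strong for their list. The strongest region of the window by -log10 q differed between libraries. In WT replicate 1 it ran from 11436155 to 11437155 (fold 51.2, percentile 99.5 of its list), in WT replicate 3 from 11571740 to 11572448 (fold 27.6, percentile 97.5), and in WT replicate 2 and A384T replicate 2 from 11486060 to 11486877 (folds 14.3 and 35.1, percentiles 87.9 and 97.4). In A384T replicate 1 it ran from 11565736 to 11566703 (fold 38.1, percentile 97.0) and in A384T replicate 3 from 11587577 to 11588352 (fold 15.6, percentile 86.8). By fold the strongest were other regions in WT replicate 1 (11571740 to 11572448, fold 60.1), WT replicate 2 (11517873 to 11518214, fold 18.5) and A384T replicate 2 (11429936 to 11430896, fold 38.2). By mean percentile over the 6 lists, the region from 11565736 to 11566703 stood first in the window and 230th among all regions of the series. Its folds were 46.6, 15.1 and 20.2 in the WT libraries and 38.1, 23.7 and 10.7 in the A384T libraries. Folds are the authors' values within a list and set no level between libraries.

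Summits of the genotypes lay close together, with an exception given below. Over the 18 regions the spread of the 6 summits had a median of 72.5 bp, wider than the 53 bp for all 962 regions. The mean A384T and WT summits lay a median of 13 bp apart, against 12.8 bp over the series. The widest spread was in the region from 11558323 to 11559742, where summits spread over 572 bp, against at most 120 bp in the others. The mean A384T and WT summits of this region lay 357 bp apart. It holds 2 neighbouring peaks in WT replicates 2 and 3 and in A384T replicate 3, and which of them was the stronger differed between libraries.

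To compare the order of strength, each region was given its percentile by -log10 q among the 962 regions found in all libraries, separately for each library. The median difference of the mean percentiles, A384T minus WT, was -21.9 points in the 18 Ms4a regions, against -1.08 over all 962. A lower mean percentile in A384T was found in 15 of the 18, a count that was not made over all 962. In 5 regions every WT library ranked above every A384T library, and in 1 every A384T library ranked above every WT library. Over the series these classes held 13.3 and 11.5% of the 962 regions. A two-sided exact permutation test per region with Benjamini-Hochberg adjustment over all 962 gave p = 0.1 for each of these 6, the smallest that 3 against 3 allows, and an adjusted p of 0.403, so no region could pass. With ranks by fold in place of -log10 q, 2 of the 5 remained (8.32% of the 962 were in that class) and the region higher in A384T did not (7.69%).

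The widest shift was in the region from 11461391 to 11462017. Its percentiles were 69.4, 47.0 and 58.2 in the WT libraries and 6.86, 31.4 and 3.74 in the A384T libraries. All WT libraries were above all A384T libraries, by -log10 q and by fold. The WT mean was 58.2 ± 11.2 and the A384T mean 14 ± 15.2 (SD, n = 3 each).

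The region from 11436155 to 11437155 stood at 89.4, 78.5 and 81.3 in the WT libraries and at 45.2, 70.6 and 17.2 in the A384T libraries. Here the WT libraries were close together and the A384T libraries were spread over most of the scale below them. The region from 11517873 to 11518214 stood at 71.8, 75.9 and 62.4 in WT and 40.4, 55.2 and 33.1 in A384T. From 11532318 to 11532667 the percentiles were 29.8, 36.8 and 38.8 in WT and 6.76, 10.3 and 23.9 in A384T. In each of these 3 regions the genotypes kept apart by -log10 q and overlapped when ranked by fold.

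The fifth region with WT above A384T, from 11558323 to 11559742, was the one with the widest spread of summits. It stood at 63.5, 71.5 and 81.1 in the WT libraries and at 32.3, 60.7 and 56.0 in the A384T libraries, again by both measures. The reverse was found from 11587577 to 11588352, which stood at 42.8, 49.6 and 13.9 in WT and 49.7, 67.2 and 78.4 in A384T. There the gap between WT replicate 2 and A384T replicate 1 was small, and the genotypes overlapped by fold.

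The other regions at the left of the block also ranked lower in A384T on average, but there A384T replicate 2 stood among the WT libraries. The region from 11429936 to 11430896 stood at 83.6, 78.4 and 87.5 in WT and at 43.1, 82.8 and 36.2 in A384T. From 11486060 to 11486877 the percentiles were 78.4, 79.3 and 87.3 in WT and 19.5, 84.0 and 32.8 in A384T. From 11521740 to 11522567 they were 59.8, 74.4 and 85.0 in WT and 9.15, 76.3 and 38.7 in A384T. In these 3 regions A384T replicates 1 and 3 were below every WT library and A384T replicate 2 was not. A pair of lower-ranked regions, from 11493407 to 11493833 and from 11533569 to 11533993, showed the same order. The first stood at 19.2, 75.2 and 43.1 in WT and at 8.37, 54.7 and 9.98 in A384T, and the other at 24.4, 75.2 and 53.1 in WT and at 13.4, 57.5 and 7.64 in A384T. Here too A384T replicate 2 alone overlapped with the WT libraries.

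At the right of the block several regions differed between genotypes by less than their spread. The region from 11565736 to 11566703 stood at 82.6, 70 and 73.0 in WT and at 69.3, 77.4 and 56.3 in A384T. The region from 11590670 to 11592145 stood at 69.2, 48.9 and 43.8 in WT and at 44.0, 46.9 and 67.7 in A384T. The region from 11579215 to 11580444 had a higher mean in A384T by 9.25 points, from 64.3, 13.6 and 47.8 in WT and 34.4, 58.4 and 60.7 in A384T, and the libraries overlapped. Differences were small in a pair of low-ranked regions, from 11543706 to 11544328 and from 11592772 to 11593451, at 2.48 and -0.901 points. The SDs within a genotype in these 5 regions reached 25.9 points, so differences of a few points could not be seen here.

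The titles number the libraries but do not say that those with the same number belong together. With the replicate number treated as pairing, WT ranked higher within every number in 8 of the 18 regions and A384T in 1. Over the 962 regions these classes held 23.5 and 22%. An exact sign-flip test within numbers cannot go below p = 0.25, and its smallest adjusted p was 0.549. The other 3 regions with WT higher in every number were those starting at 11493407, 11533569 and 11559823, in which the genotypes overlapped when numbers were ignored. The regions starting at 11493407 and 11533569 were closely alike and may not be separate.

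**Figure D4:**
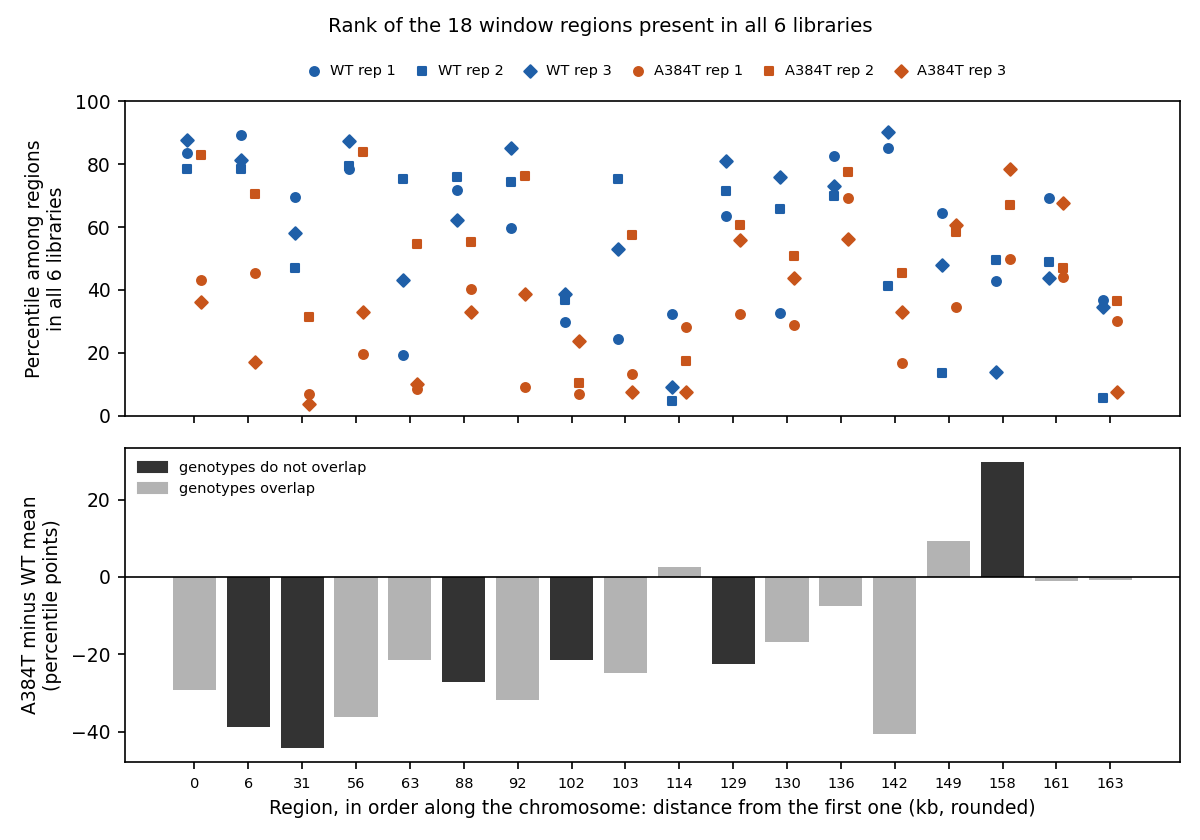
Percentile of each of the 18 Ms4a regions among the regions found in all 6 libraries, by library (top), and the difference of the genotype means, A384T minus WT, in percentile points (bottom). Regions are in order along the chromosome and labelled with the distance from the first in kb, and dark bars mark regions whose genotypes do not overlap. The first 9 differences are all below 0, and the last 9 run from -40.6 to 29.6.

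Among the 18 shared regions the difference between genotypes was not even along the block. The 9 regions from 11429936 to 11533993 all had lower mean percentiles in A384T, with a median difference of -29.1 points. The 9 regions from 11543706 to 11593451 had a median difference of -1.11, with 6 lower and 3 higher in A384T. Among the latter, the region from 11571740 to 11572448 stood out at -40.6, with 85.2, 41.4 and 90.2 in the WT libraries and 16.6, 45.3 and 33.1 in the A384T libraries. Across the 18 regions position and difference had a Spearman correlation of 0.711. It was weaker within replicate numbers, over all block regions with a peak in both libraries of a number, by percentile within the full list. There it was 0.0895 over 39 regions for number 1, 0.315 over 34 for number 2 and 0.579 over 18 for number 3. The direction by this percentile differed between numbers. For number 1, A384T was lower in all 18 regions before 11543706 and all 21 from there on. For number 2 it was higher in all 18 and in 15 of 16. For number 3 it was lower in all 9 and in 8 of 9. Why number 2 went the other way was not tested. The regions share their 6 libraries and the division into 9 and 9 was made after the values were seen. The pattern along the block is therefore a description.

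Library by library, the median percentile of the second 9 regions minus that of the first 9 was -5.93, -26.4 and -14.6 in the WT libraries and 19, -6.70 and 32.2 in the A384T libraries. The first 9 thus ranked higher in each WT library and in A384T replicate 2, and lower in A384T replicates 1 and 3.

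Tag length was 51 bp in the replicate 1 libraries and 49 bp elsewhere. At 49 bp the window took 2.06 and 1.66% of lists of equal length in the WT libraries, against 1.32 and 0.802% in the A384T libraries, and at 51 bp 1.43% in WT and 0.344% in A384T. WT was higher in both sets.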

How the data were processed

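FoxP3 ChIP-seq of Treg cells comprised 3 ChIP and 3 input libraries for each genotype, grouped and numbered by their titles. The inputs were not used here as samples. Per the submitters' processing notes Bowtie2, MACS2 and mm9 were used, and per the file headers peaks were called by MACS 2.1.0.20140616 on each library against 1 control at a q-value cutoff of 1e-10, keeping 1 tag per position. The deposited lists give the pileup signal at the summit, the fold enrichment as a ratio of ChIP to local control, and -log10 p-values and q-values. Absence from a list means only that the cutoff was not reached there. Depth, from the headers, was 17520951 to 25386770 unique tags.

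Peaks on the numbered chromosomes, X and Y entered and were joined where they overlapped by at least 1 bp. Shares, presence and ranks were computed with scipy 1.17.1, pandas 2.3.3 and numpy 2.4.6 under Python 3.11.15, and alignments with Biopython 1.88. Joining, ranks and the permutation test were tested on simulated data. The members, lists and rules were chosen with earlier results of these data known. Named were all regions present in all 6 libraries, all regions restricted to a genotype in 3 of 3, and the strongest region of each library; other named regions, the division of the block and the alike pair of regions were chosen after their values were seen. Same-numbered libraries deviated together over the 962 shared regions, though weakly for number 2 (r = 0.435, 0.123 and 0.374 for numbers 1, 2 and 3). The replicate number was therefore treated as pairing, which the labels do not state. The alternatives tried were lists of equal length, a -log10 q minimum of 20, a fold minimum of 5, overlap of 50%, summits within 200 bp, ranks by fold, other stretches, any overlap with the window, the block and each library left out. No mm9 annotation was used, so regions were not assigned to genes.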

Additional observations from a re-analysis of the deposited data

How the results depend on the processing

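Values of 8 results were recomputed 94 times under other settings. In 75 the value stayed within the spread between libraries, its counting interval or 1.5 times the count, and in 19 it moved further. For the difference in share, the spread pooled from SDs of 0.807 (WT) and 0.326 (A384T) was wider than the difference of -0.555 itself. Even no difference would have counted as staying. The mean difference in share within replicate numbers equals the main value by construction and was no separate check. No alternative turned the sign of the difference in share. With lists of equal length the counts were 24 regions in both genotypes, 6 in every library, 2 in every WT library and no A384T library, 2 with WT ranked higher and 0 with A384T ranked higher, and 94.4% of regions lay in the densest 200 kb. The cause of these moves was not tested. Ranks by fold gave 2 and 0. Within replicate numbers, as a replicate block, the counts were 8 and 1. Stretches of 100 and 300 kb held 51.5 and 89.9% of regions.

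With each library left out, the difference in share ran from -0.930 to -0.128, regions in both genotypes from 38 to 55, regions in every library from 18 to 31 (31 without A384T replicate 3) and the densest share from 78.5 to 85.4%. Regions restricted to WT ran from 0 to 2 (2 without WT replicate 2 or A384T replicate 2) and those restricted to A384T stayed at 0. Regions ranked higher in WT ran from 5 to 12 (8 without WT replicate 2, 12 without A384T replicate 2) and those ranked higher in A384T from 0 to 1 (0 without any single WT library). The set of shared regions and its ranks were rebuilt each time. The ranks in lists of equal length and the lists of 500, 1000 and 1500 peaks were added after the data were seen.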

Other observations

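Among the 153 pairs of the 18 shared regions, those from 11493407 to 11493833 and from 11533569 to 11533993 had the most alike ranks, with a mean absolute difference of 4.22 percentile points over the 6 libraries, against a median of 26.0 over all pairs. The pair was picked after its values were seen. The folds in the 2 regions were 16.5 and 18.5 in WT replicate 1, 17.1 and 17.1 in WT replicate 2, and 10.9 and 13 in WT replicate 3. In A384T they were 15.8 and 18.8 in replicate 1, 26.6 and 27.4 in replicate 2, and 6.71 and 6.55 in replicate 3. In each library the 2 summits lay 40160 to 40177 bp apart. The 2 regions just before each of them in WT replicate 1 repeated the layout, at distances of 40131 and 40156 bp. From 11492844 to 11493279 the fold there was 19.4 and from 11533005 to 11533461 it was 20.4. From 11492057 to 11492511 it was 17.5 and from 11532318 to 11532667 it was 29.9. Of this last couple only the latter had a peak in all 6 libraries. How reads from near-identical copies were placed is not given in the sources used here, so peaks in duplicated stretches are uncertain, and whether these stretches are copies was not tested.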
